A study of Rattus norvegicus with 8 samples.

Results

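The nuclear genes for the subunits of oxidative phosphorylation were followed in the developing rat pineal gland. They were chosen by name from the deposited values: symbols that start with Nduf, Uqcr, Cox4, Cox5, Cox6, Cox7, Cox8 or Atp5, together with Sdha, Sdhb, Sdhc, Sdhd and Cyc1. This gave 86 transcripts of 83 symbols, out of 16932 transcripts of 16462 symbols in all. By complex they were 36 transcripts for complex I, 4 for complex II, 8 for complex III, 17 for complex IV and 14 for complex V. A further 7 transcripts carry such a name without being subunits: the complex I assembly factors Ndufaf1, Ndufaf3 and Ndufaf4, Cox4nb (a gene of an endoplasmic reticulum membrane complex, now called Emc8), Atp5s and Atp5sl. Of the 86, 81 reached 1 FPKM in at least 2 libraries and were tested, among 9960 transcripts tested in all. FPKM counts fragments per kilobase of transcript relative to all fragments mapped, so it is a level per length that can be set side by side between genes.

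RNA was taken from pooled pineal glands of Sprague-Dawley rats kept under a 14:10 light cycle, at embryonic day 21 (E21) and at postnatal days 5, 20 and 40 (P5, P20 and P40). At each age 1 library came from mid-day (zeitgeber time 7 h) and 1 from mid-night (zeitgeber time 19 h). The number of animals pooled by day and by night was 13 and 15 for E21, 17 and 19 for P5, 13 and 10 for P20, and 3 and 3 for P40. No genetic or drug treatment is named, and all 8 libraries were poly(A)-selected RNA of the whole gland. Because each age and time has 1 library, p-values speak only of how these pools differ from each other, and a difference between day and night at a single age has no test.

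Oxidative phosphorylation is the route by which mitochondria turn the energy of food into ATP. Electrons enter at complex I (NADH dehydrogenase) or complex II (succinate dehydrogenase), pass through complex III (the cytochrome bc1 complex) to cytochrome c and on to oxygen at complex IV (cytochrome c oxidase), and the proton gradient built on the way drives complex V (ATP synthase). Each of complexes I, III, IV and V joins nuclear subunits with a part encoded in mitochondrial DNA, and the genes described here are nuclear. The pinealocyte, the main cell of the gland, resembles a retinal photoreceptor and makes melatonin at night.

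The label of the tissue was checked against 10 pinealocyte genes, whose summed level ran from 1054 FPKM in the E21 mid-day library to 5987 FPKM in the P5 mid-day library. Each of the 10 was tested, and 5 were higher at P40 than at E21. Deposited FPKM summed to between 122920 and 158792 per library, and between 8598 and 9533 transcripts reached 1 FPKM. Markers of other cells differed between libraries as well: erythroid genes summed to 11891 FPKM and 6664 FPKM at mid-day and mid-night of E21 and to 1239 FPKM and 1517 FPKM at P40, and choroid plexus genes reached 17880 FPKM in the P5 mid-night library alone, against 708 to 3211 FPKM in the other 7. In whole-gland RNA, fewer cells of a type and less RNA per cell cannot be told apart.

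The 2 libraries of E21 stood far apart in several members. At that age 13 of the 81 members (16.0%) were at least 2-fold apart on the log2(FPKM + 1) scale, against 2.03% of all transcripts tested (0.783% higher and 1.24% lower at mid-night). Higher at mid-night were Ndufb2 (by 2.61), Cox7b (2.09), Cox6c (2.08), Ndufa4 (1.67), Ndufb4 (1.53) and the NM_001101011 transcript of Ndufv3 (1.39). Lower at mid-night were Atp5i (-3.30, from 62.5 FPKM to 5.44 FPKM), Atp5g2 (-2.80), Atp5e (-2.36), Ndufb8 (-1.56), Atp5j (-1.37), Ndufs6 (-1.27) and Ndufa7 (-1.19). The split thus ran in both directions, and the median of the members was -0.08.

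**Figure D1:**
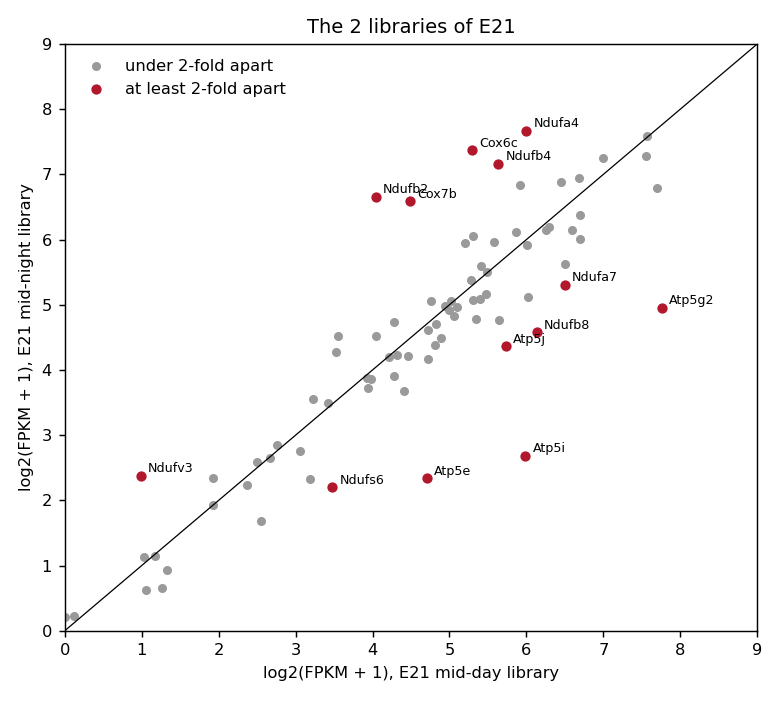
Log2(FPKM + 1) of each of the 81 members tested in the E21 mid-day library (x axis) and the E21 mid-night library (y axis), with the line of equal values. Red points are the 13 members at least 2-fold apart, 6 above the line and 7 below it.

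At E21 such pairs were commonest among genes that span little of the genome. Of all transcripts tested, 25.6% of those spanning up to 1 kb were 2-fold apart, against 0.658% of those spanning over 30 kb. The members span a median of 6833 bp and all transcripts tested 20694.5 bp. Within the same range of 5 to 10 kb, 8 of 26 members were 2-fold apart, against 3.02% of all transcripts, and 0 of 21 members at 2 to 5 kb, against 4.69%. The pools of E21 also differed in erythroid genes, and the part of span, of other cells or of time of day in the split was not tested. Of the members named below for a change from E21, Ndufa4, Ndufb2, Cox6c, Ndufa7, Ndufb8, Ndufs6, Atp5g2 and Atp5j are among the 13.

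Together, the subunits of complexes I to V took a larger share of all FPKM after birth. Their share was 2.35% by day and 2.58% by night in the E21 pair, 3.71% and 3.41% in the P5 pair, 4.31% and 3.59% in the P20 pair and 3.81% and 4.11% in the P40 pair. Both E21 libraries lay below each of the other 6. By its sum complex IV moved most, from 604 FPKM and 811 FPKM summed at mid-day and mid-night of E21 to 1565 FPKM and 1673 FPKM at P5, 2147 FPKM and 1328 FPKM at P20 and 1409 FPKM and 1870 FPKM at P40. That rise was carried by its abundant members: Cox6c alone went from 6.31% and 20.3% of the complex IV sum at E21 to 33.5% and 44.4% at P40, while the median complex IV transcript stood at 21.5 FPKM and 26.2 FPKM at E21, 40.1 FPKM and 43.2 FPKM at P5 and 12.6 FPKM and 24.3 FPKM at P40.

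The complexes did not move as a block. Summed complex I went from 1440 ± 67.3 FPKM at E21 to 2120 ± 43.6 FPKM at P5 and 2287 ± 31.8 FPKM at P40 (mean ± SD, n = 2 libraries per age). For complex II the sums were 117 ± 2.26 FPKM at E21 and 168 ± 2.74 FPKM at P40, and for complex V they were 877 ± 193 FPKM and 1093 ± 193 FPKM, which overlap. Summed complex III stood at 235 ± 57.5 FPKM at E21 and 233 ± 1.69 FPKM at P40, a log2 ratio of -0.01, which became 0.13 when each library was divided by its median. LOC685322, annotated with the alias of a further complex III subunit, is left out by the naming rule. With it that sum would be 346 FPKM and 529 FPKM at E21 and 1207 FPKM and 862 FPKM at P40. It is listed on a locus of 180 bp, and its E21 libraries stood far apart, at 70.5 FPKM and 334 FPKM. These sums are dominated by the most abundant subunits and carry no test.

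**Figure D2:**
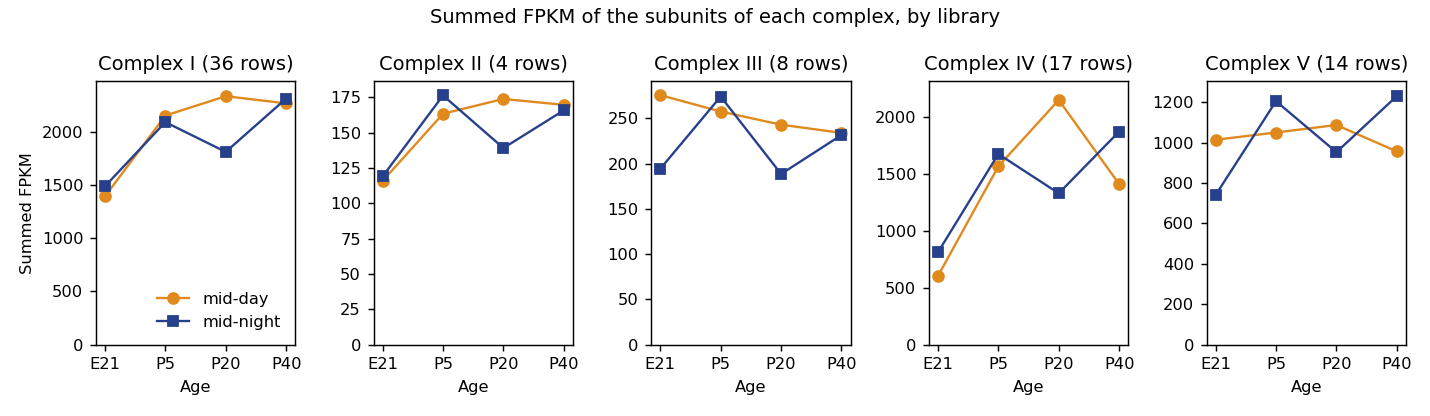
Summed FPKM of the transcripts of each complex (y axis, linear, from 0) at the 4 ages (x axis). Orange circles are mid-day and blue squares mid-night libraries, 1 library each, and lines join libraries of the same time of day. Complex I, II and IV lie lowest at E21 in both libraries, while for complex III the E21 mid-day library (276 FPKM) is the highest of the 8.

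Between E21 and P40, in the comparison that asks what changes from late gestation to young adulthood, 23 of the 81 members tested rose and 11 fell (limma, adjusted p under 0.05). Over all transcripts tested, 42.9% were called in this comparison, 16.1% up and 26.8% down, so the number of members called lies near the background. The median log2 change of the members was 0.34, against -0.18 for all transcripts tested. With each library centred on its median, which takes out that shift, 34 members rose and 9 fell. The shares of all transcripts given above belong to the fit without centring, and those after centring are not given here. By complex, 11 rose and 6 fell of 34 for complex I, 2 rose of 4 for complex II, 1 rose of 8 for complex III, 6 rose and 2 fell of 14 for complex IV, and 3 rose and 3 fell of 14 for complex V. None of the 7 transcripts that are not subunits passed. Among the 23 that rose is the NR_037674 transcript of Cox6a2, which met the filter only through its P40 libraries.

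Without the filter on low values, 11 members were called: Ndufa2, Ndufa5, Ndufv3 (NM_022607), Sdha, Sdhc, Cox7c, Cox6b2, Cox6a2 (NR_037674), Atp5d, Atp5f1 and Atp5g1. The calls for the other 23 ended there, among them Cox6c (adjusted p = 0.103), Cox8a (0.0524), Ndufa4 (0.104), Ndufa1 (0.0557), Ndufa7 (0.0686), Ndufa11 (0.0542) and the NM_012812 transcript of Cox6a2 (0.0931). Leaving out 1 library at a time ended part of the 34 calls, as listed next. The NR_037674 transcript of Cox6a2 fell under the filter without either P40 library, so its call was not tested in those fits. Without the P40 mid-day library the calls for Atp5g2, Atp5j, Atp5l, Cox4i1, Cox7a2, Ndufa12, Ndufa6, Ndufb10, Ndufb11, Ndufb2, Ndufb5, Ndufb8, Ndufs1, Ndufs3, Ndufs6, Sdhc and Uqcrc1 ended. Without the P40 mid-night library those for Atp5f1, Atp5l, Cox4i1, Cox7a2, Ndufa12, Ndufb2, Ndufb5, Ndufb8, Ndufs1, Ndufs3, Ndufs6, Sdha, Sdhc and Uqcrc1 ended. Without the E21 mid-day library those for Atp5l, Cox4i1, Ndufa12, Ndufb10, Ndufb2, Ndufb8, Ndufs3, Sdhc and Uqcrc1 ended, and without the E21 mid-night library those for Atp5f1, Cox4i1, Cox7a2, Ndufa12, Ndufa6, Ndufb5, Ndufs1, Ndufs6, Sdhc and Uqcrc1. Leaving out a library of P5 or P20 ended calls for Atp5l, Ndufb8 and Ndufs6 alone. Some of the values that moved by over 1.5 times are given beside the gene. Across the settings tried, the change of Ndufa12 ranged from 0.65 to 1.24 and that of Cox7a2 from -2.72 to -0.61. For P5 against E21, Cox6c ranged from 1.44 to 3.29 and the NM_012812 transcript of Cox6a2 from 0.96 to 4.48.

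**Figure D3:**
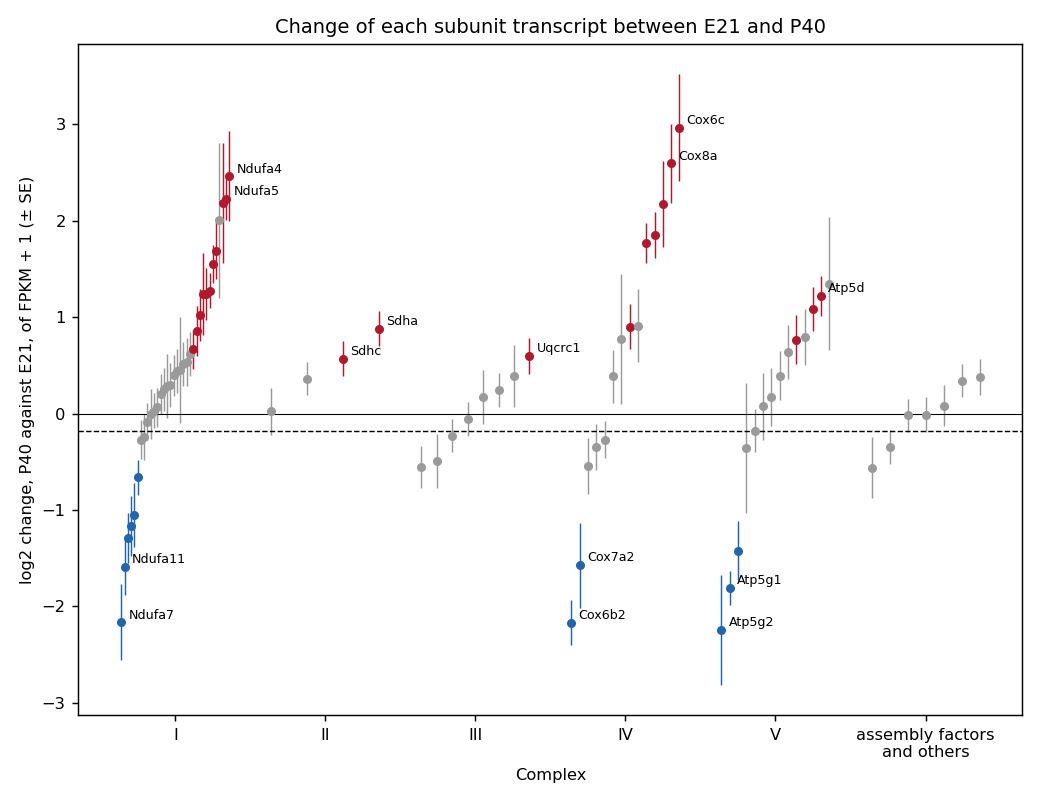
Log2 change of FPKM + 1 from E21 to P40 (y axis) for each of the 81 members tested, grouped by complex (x axis) and sorted within it. Bars are the standard error, red and blue points rose or fell at an adjusted p under 0.05 (limma), grey points did not pass, and the dashed line is the median of all transcripts tested. Complexes I, IV and V hold both large increases, up to 2.96 for Cox6c, and large decreases, down to -2.25 for Atp5g2, while complexes II and III hold no change past 1 in either direction.

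In complex I, the subunits that bear the flavin and the iron-sulfur clusters moved little, and the large changes were in accessory subunits. Among the core subunits, Ndufs1, the largest, which carries several clusters, rose by 0.67 ± 0.20 (SE; limma, adjusted p = 0.0317). Its levels were 28.5 FPKM and 21.4 FPKM at mid-day and mid-night of E21 and 41.0 FPKM and 38.8 FPKM at P40. Ndufs3, a core subunit of the arm that takes in electrons, fell by 0.66 on the log2 scale (limma, adjusted p = 0.0216), from 25.3 FPKM and 17.0 FPKM to 13.5 FPKM and 12.0 FPKM. Core subunits that did not pass included Ndufv1, which binds NADH, with a log2 change of 0.03, Ndufv2 with 0.30, Ndufs7 with 0.07 and Ndufs8 with -0.27. The calls for Ndufs1 and Ndufs3 were fragile. Without the E21 mid-night library Ndufs1 was at 0.44 (adjusted p = 0.220), and without the E21 mid-day library Ndufs3 was at -0.46 (adjusted p = 0.167).

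Ndufa5, an accessory subunit of the arm that reaches into the matrix, climbed in steps. Its level was 8.34 FPKM and 10.8 FPKM at mid-day and mid-night of E21, 19.7 FPKM and 26.0 FPKM at P5, 56.8 FPKM and 44.7 FPKM at P20 and 45.3 FPKM and 51.1 FPKM at P40. The libraries of E21, of P5 and of the later ages form 3 groups that do not overlap. The log2 change from E21 to P40 was 2.23 ± 0.22 (SE; limma, adjusted p = 0.00023), and it stayed past the threshold under every alternative. The gene lies on chromosome 4 at 50649500 to 50657853 (rn4).

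Ndufa4, named as a complex I subunit and now counted among the subunits of cytochrome c oxidase, was the most abundant member of complex I, with a mean of 382 FPKM over the 8 libraries. It went from 62.8 FPKM and 202 FPKM at E21 through 318 FPKM and 333 FPKM at P5 and 475 FPKM and 416 FPKM at P20 to 652 FPKM and 600 FPKM at P40. Each age lay above the one before in both libraries, although the E21 libraries differed by more than 3-fold. The log2 change was 2.46 ± 0.47 (SE; limma, adjusted p = 0.00452), and it was 1.59 without the E21 mid-day and 3.34 without the E21 mid-night library. Ndufb2, of the membrane arm, showed the same split at E21, at 15.5 FPKM and 99.99 FPKM, and stood at 177 FPKM and 193 FPKM at P40. Its change of 2.19 ± 0.62 became 0.85 without the E21 mid-day library, where it no longer passed (limma, adjusted p = 0.0760), and 3.52 without the E21 mid-night library.

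Further accessory subunits that rose were Ndufa1 (1.69 ± 0.30), needed to build the membrane arm, Ndufa2 (1.55 ± 0.19), Ndufb10 (1.24 ± 0.27) and Ndufa12 (1.02 ± 0.27, all SE; limma, adjusted p from 0.000763 to 0.0176). Ndufa2 was almost the same in both libraries of E21, at 17.6 FPKM and 17.4 FPKM, and reached 63.2 FPKM and 44.8 FPKM at P40. Ndufa12 was already at 240 FPKM and 279 FPKM at P5, from 102 FPKM and 122 FPKM at E21, and stood at 190 FPKM and 274 FPKM at P40. Without the P40 mid-night library the change of Ndufa12 was 0.80 (adjusted p = 0.168), and without the P40 mid-day library that of Ndufb10 was 1.15 (adjusted p = 0.0699). Ndufb5 (0.85) passed too but lost its call without any of 3 libraries (0.58 without the E21 mid-night library, adjusted p = 0.195), and Ndufs6 (1.24), listed on a locus of 414 bp, passed narrowly (limma, adjusted p = 0.0472), lost its call without any of 5 libraries and was at 0.54 without the E21 mid-night and 1.93 without the E21 mid-day library.

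The complex I members that fell were accessory subunits apart from Ndufs3. Ndufa7 stood at 89.2 FPKM and 38.6 FPKM at E21, 43.9 FPKM and 26.3 FPKM at P5, 23.1 FPKM and 14.3 FPKM at P20 and 9.42 FPKM and 16.1 FPKM at P40. Ndufa11, a subunit embedded in the membrane arm, stood at 206 FPKM and 110 FPKM at E21, 83.3 FPKM and 105 FPKM at P5, and 39.7 FPKM to 50.8 FPKM over the 4 later libraries. The mean of Ndufa7 was lower at each later age. Ndufa11 fell up to P20 and no further (means of 45.2 FPKM at P20 and 49.3 FPKM at P40), and its E21 libraries lay above all 6 others. Ndufa7 fell by 2.16 on the log2 scale and Ndufa11 by 1.59 (limma, adjusted p = 0.00377 and 0.00403), and Ndufa7 was at -1.38 without the P40 mid-day and at -2.95 without the P40 mid-night library. Leaving out the E21 mid-day or mid-night library moved Ndufa11 to -1.15 or -2.03. Ndufb11 (-1.29 ± 0.26), Ndufa6 (-1.16 ± 0.31) and Ndufb8 (-1.05 ± 0.33) also fell, each by a smaller amount. Of these, Ndufb11 was at -0.92 (adjusted p = 0.0631) and Ndufa6 at -0.79 (adjusted p = 0.157) without the P40 mid-day library, and Ndufb8 was at -0.41 (adjusted p = 0.224) without the E21 mid-day and at -1.70 without the E21 mid-night library.

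Ndufv3, a small subunit beside the NADH-binding site, is listed with 2 transcripts on the same locus (chromosome 20, 9951109 to 9960264). NM_022607, the more abundant one in 8 of 8 libraries, rose from 14.9 FPKM and 13.5 FPKM at E21 to 39.5 FPKM and 32.2 FPKM at P40, a log2 change of 1.28 ± 0.18 (SE; limma, adjusted p = 0.00129). The other, NM_001101011, swung between 0.391 FPKM and 22.1 FPKM. Their sum was 15.8 FPKM and 17.7 FPKM at E21 and 61.6 FPKM and 38.4 FPKM at P40 (1.49; limma, adjusted p = 0.00154). How fragments were divided between the 2 transcripts cannot be seen from FPKM.

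Complex II has no subunit encoded in mitochondrial DNA and also works in the citric acid cycle. Sdha, the flavoprotein that oxidises succinate, stood at 31.0 FPKM and 29.4 FPKM at E21, 48.4 FPKM and 48.4 FPKM at P5, 54.1 FPKM and 44.1 FPKM at P20 and 55.9 FPKM and 56.9 FPKM at P40. The step came between E21 and P5, and both E21 libraries lay below all later ones. Its log2 change to P40 was 0.88 ± 0.18 (SE; limma, adjusted p = 0.00639), and 0.81 without the P40 mid-night library (adjusted p = 0.0704). Sdhc, a membrane anchor, rose by 0.57 ± 0.18 (limma, adjusted p = 0.0375) and lost its call without any of the 4 libraries of E21 and P40 (adjusted p up to 0.196). Sdhb, the iron-sulfur subunit, was at 0.36 and Sdhd, the other anchor, at 0.02, and neither passed.

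Complex III held a single call among its 8 transcripts, that for Uqcrc1, a core protein on the matrix side. It stood at 32.3 FPKM and 27.4 FPKM at E21 and at 47.3 FPKM and 43.9 FPKM at P40, a log2 change of 0.60 ± 0.19 (SE; limma, adjusted p = 0.0342), which lost its call without any of those 4 libraries (adjusted p up to 0.189). The electron carriers did not pass: Cyc1, cytochrome c1, had a log2 change of 0.24 and Uqcrfs1, the Rieske iron-sulfur protein, -0.23. Uqcrc2, the partner of Uqcrc1, was at -0.06, Uqcrh, the hinge protein, at -0.49, Uqcrq at 0.39 and Uqcr at 0.17. Uqcrb was the least abundant, with a mean of 2.77 FPKM, and had a log2 change of -0.55 (adjusted p = 0.0724). A further entry lay outside the naming rule: LOC685322, given the alias Ucrc in the deposited annotation, rose from 70.5 FPKM and 334 FPKM at E21 to 974 FPKM and 631 FPKM at P40 (2.34 ± 0.70; limma, adjusted p = 0.0290). Its E21 libraries were 2.23 apart on the log2 scale, and no fit with a library left out is given for it. LOC685322 alone exceeded the sum of the 8 members in 7 of 8 libraries, on a locus of 180 bp.

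Complex IV held the largest increases, all in small subunits that surround the catalytic core. Cox6c stood at 38.1 FPKM and 165 FPKM at E21, 346 FPKM and 492 FPKM at P5, 810 FPKM and 527 FPKM at P20 and 473 FPKM and 830 FPKM at P40. Its E21 libraries were more than 4-fold apart, yet both lay below every later library. The change to P40 was 2.96 ± 0.55 (SE; limma, adjusted p = 0.00429), with 2.04 without the E21 mid-day and 3.89 without the E21 mid-night library. Cox8a stood at 35.8 FPKM and 60.9 FPKM at E21, 324 FPKM and 293 FPKM at P5, 446 FPKM and 196 FPKM at P20 and 297 FPKM and 278 FPKM at P40. Nearly all of its rise was there by P5, and the change to P40 was 2.60 ± 0.41 (SE; limma, adjusted p = 0.00214), or 1.98 and 3.21 without the E21 mid-day and mid-night library. Cox7c went from 48.9 FPKM and 26.2 FPKM to 141 FPKM and 123 FPKM (1.85 ± 0.24) and stayed past the threshold under every alternative.

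Cox4i1, the largest nuclear subunit of the oxidase, stood at 63.1 FPKM and 59.6 FPKM at E21, 120 FPKM and 115 FPKM at P5, 160 FPKM and 106 FPKM at P20 and 112 FPKM and 119 FPKM at P40. It had nearly doubled by P5 and held that level, with a change to P40 of 0.90 ± 0.23 (SE; limma, adjusted p = 0.0172). Without the P40 mid-night library it was at 0.74 (adjusted p = 0.154), and it also lost its call without any of the other 3 libraries of E21 and P40. Cox5b was at 0.91 ± 0.38 and Cox7b at 0.77 ± 0.67, with E21 libraries of 21.5 FPKM and 95.0 FPKM for Cox7b, and neither passed. Cox5a, which binds beside Cox4i1, was listed at only 0.568 FPKM to 1.87 FPKM.

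Cox6b2 and Cox7a2 were the complex IV members that fell. Cox6b2 is known as the testis form of a subunit on the cytochrome c side of the oxidase. It stood at 59.6 FPKM and 114 FPKM at E21, 83.0 FPKM and 109 FPKM at P5, 28.2 FPKM and 33.1 FPKM at P20 and 12.6 FPKM and 24.3 FPKM at P40, on chromosome 1 at 67810527 to 67811752 (rn4). The 4 libraries of E21 and P5 lay above the 4 later ones, and mid-night was above mid-day at all 4 ages. It fell by 2.17 on the log2 scale between E21 and P40 (SE 0.23; limma, adjusted p = 0.00035) and passed under every alternative. Cox6b1, the general form, is given as the alias of LOC688869, which was at 0.130 FPKM in the E21 mid-day library and listed at 0 in the other 7. Germ cell genes (Ddx4, Dazl, Tnp1 and Prm1) summed to at most 0.351 FPKM in any library, and Tnp1 and Prm1 were listed at 0 in all 8.

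Cox7a2 is uncertain. It stood at 2.80 FPKM and 4.10 FPKM at E21, 8.73 FPKM and 3.62 FPKM at P5, 2.45 FPKM and a listed 0 at P20 and 0.815 FPKM and 0.207 FPKM at P40, and passed as lower at P40 (-1.57 ± 0.44; limma, adjusted p = 0.0232). Its locus (chromosome 8, 84813292 to 84817390) lies wholly inside that of LOC100363289, which stood at 8.38 FPKM and 17.3 FPKM at E21 and 26.3 FPKM and 30.4 FPKM at P40 and rose by 1.16 ± 0.30 (limma, adjusted p = 0.0167). These overlapping entries were thus called in opposite directions, and how fragments of the shared stretch were divided is not given in the sources used here. Added together they were at 11.2 FPKM and 21.4 FPKM at E21 and at 27.1 FPKM and 30.6 FPKM at P40. The call for Cox7a2 also ended without the E21 mid-night library (-0.78, adjusted p = 0.155), and its change was -2.36 without the E21 mid-day library.

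In complex V, Atp5d and Atp5f1 of the stalks were among the members that rose, Atp5g1 and Atp5g2 of the membrane ring fell with Atp5j, and the catalytic subunits did not pass. Atp5d, the delta subunit of the central stalk, rose from 25.4 FPKM and 23.4 FPKM at E21 to 48.5 FPKM and 69.6 FPKM at P40 (1.22 ± 0.20; limma, adjusted p = 0.00262) and passed under every alternative. Atp5f1, which encodes subunit b of the outer stalk, rose by 1.08 ± 0.23 (limma, adjusted p = 0.00765), to 137 FPKM and 187 FPKM, and was at 0.94 without the P40 mid-night library (adjusted p = 0.0808). Atp5l, subunit g, was called at 0.77 ± 0.26 and was at 0.39 without the E21 mid-day library (limma, adjusted p = 0.313). The catalytic beta subunit Atp5b, the most abundant member of complex V with a mean of 288 FPKM, had a change of 0.79 ± 0.29 (adjusted p = 0.0576). The alpha subunit Atp5a1 was at 0.39 and the gamma subunit Atp5c1 at -0.18, and neither passed. Atp5e, the epsilon subunit, listed on a locus of 362 bp, ranged from 4.07 FPKM to 51.7 FPKM with no call.

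Subunit c forms the rotating ring of ATP synthase, and in mammals several genes encode the same mature protein with different import signals. Of these, Atp5g1 fell mostly between P5 and P20. It went from 27.1 FPKM and 19.9 FPKM at E21 to 22.8 FPKM and 14.9 FPKM at P5, 9.46 FPKM and 4.67 FPKM at P20 and 7.55 FPKM and 4.57 FPKM at P40. All 4 libraries of E21 and P5 lay above the 4 later ones, and the fall by 1.81 on the log2 scale (SE 0.18; limma, adjusted p = 0.00025) passed under every alternative. Atp5g2 was at 215.5 FPKM and 30.0 FPKM at E21, 27.3 FPKM and 24.0 FPKM at P5, 24.4 FPKM and 14.9 FPKM at P20 and 17.6 FPKM and 15.0 FPKM at P40. Its change of -2.25 ± 0.57 rests on the E21 mid-day library, without which it was -1.02 (and -3.47 without the E21 mid-night library), and its call ended without the P40 mid-day library (limma, adjusted p = 0.106). Atp5g3 had a change of 0.17 and no call, between 15.6 FPKM and 36.1 FPKM.

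As a share of the 3 genes' summed FPKM, Atp5g1 went from 27.6% in the E21 mid-night library and 26.6% and 19.9% at P5 to between 11.1% and 16.5% in the 4 later libraries. Atp5g3 held 30.7% in the E21 mid-night library and 41.5% to 52.3% in all 6 later libraries. In the E21 mid-day library Atp5g2 took 83.5%, so Atp5g1 and Atp5g3 were left with 10.5% and 6.03%. Atp5j, coupling factor 6 of the outer stalk, also fell, by 1.42 on the log2 scale (limma, adjusted p = 0.00769), from 52.0 FPKM and 19.6 FPKM to 11.2 FPKM and 11.5 FPKM. Without the P40 mid-day library that change was -0.94 (adjusted p = 0.0639).

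**Figure D4:**
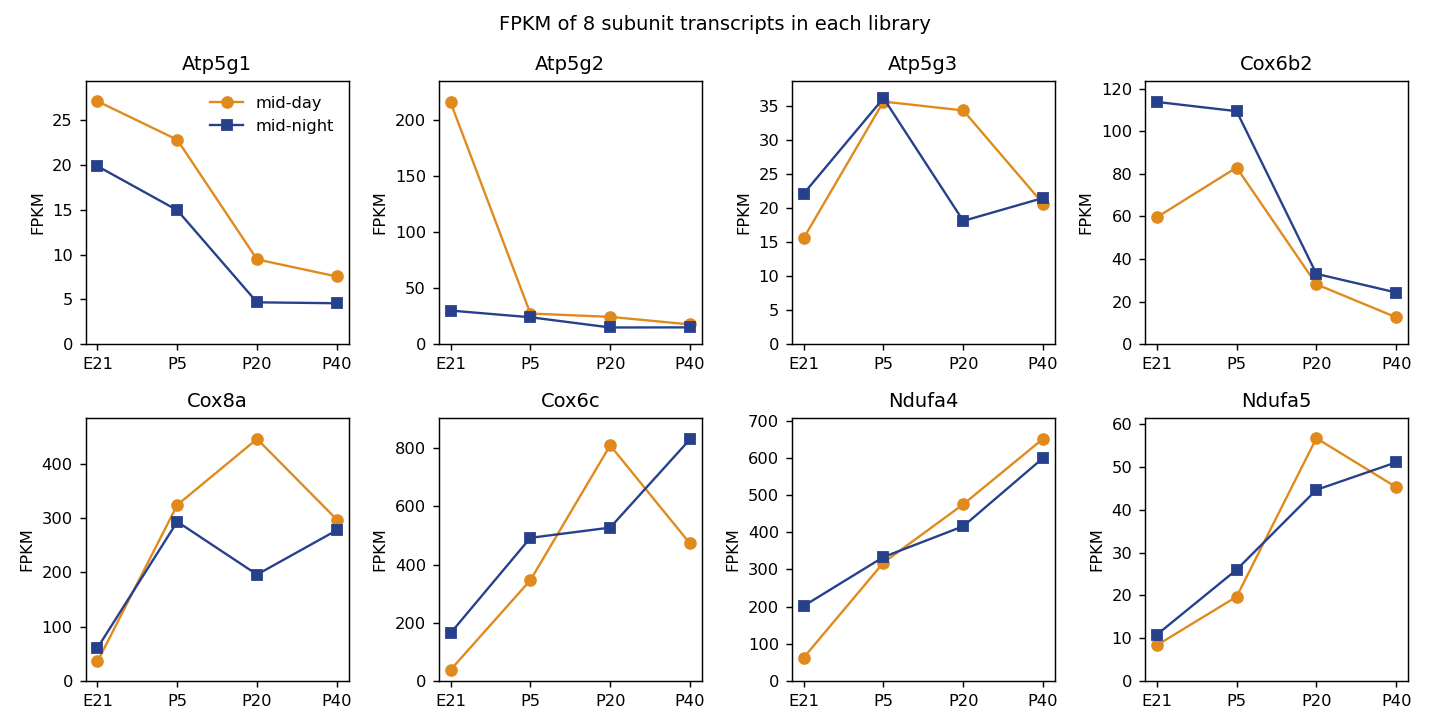
FPKM (y axes, linear, from 0, a scale for each gene) of 8 members at the 4 ages (x axis), with orange circles for mid-day and blue squares for mid-night, 1 library each. Atp5g1 and Cox6b2 drop between P5 and P20, Cox8a and Cox6c climb between E21 and P5, and Atp5g2 is high in the E21 mid-day library (215.5 FPKM) and between 14.9 FPKM and 30.0 FPKM elsewhere.

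Other subunits exist as a general form and a tissue form. Cox4i1 made up 98.0% to 99.5% of the summed FPKM of Cox4i1 and Cox4i2, the lung-enriched and oxygen-responsive form, in the 8 libraries, with Cox4i2 at 0.560 FPKM to 1.2 FPKM. Cox6a2, the heart and skeletal muscle form, rose, but from almost nothing: NM_012812 was at 0.0918 FPKM and 0.167 FPKM at E21 and at 1.94 FPKM and 7.83 FPKM at P40 (2.17 ± 0.45; limma, adjusted p = 0.00658), with 1.27 without the P40 mid-night and 3.08 without the P40 mid-day library. Its second transcript, NR_037674, lies on the same 747 bp locus. It was at a listed 0 and 0.157 FPKM at E21 and at 2.90 FPKM and 2.45 FPKM at P40 (1.77 ± 0.21; limma, adjusted p = 0.00061). NR_037674 reached 1 FPKM only at P40, so it met the filter only because P40 was high. That p-value is therefore no support for its rise. At such levels the offset sets the size: with 0.1 FPKM or 5 FPKM in place of 1 FPKM the change was 4.15 or 0.88 for NM_012812 and 4.11 or 0.59 for NR_037674. Summed, Cox6a2 reached 10.3 FPKM in the P40 mid-night library, where it was 7.10% of Cox6a1 and Cox6a2 together, against 0.0491% in the E21 mid-day library. Skeletal muscle genes summed to 0.746 FPKM and 0.658 FPKM at P40, below their 1.68 FPKM and 1.48 FPKM at E21, and were highest at P5 (11.7 FPKM at mid-day). Cardiac muscle genes summed to 1.25 FPKM and 1.57 FPKM at E21 and 0.896 FPKM and 0.774 FPKM at P40. Brown fat genes went the other way, from 0.613 FPKM and 0.880 FPKM at E21 to 4.89 FPKM and 4.43 FPKM at P40. The part of such tissues in the values of Cox6a2 was not tested. Cox6a1, the general form, stood at 115 FPKM to 237 FPKM with no call (-0.35), except after quantile normalization, where it was called at -0.85 (limma, adjusted p = 0.0166).

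Cox7a2l, which encodes a factor that helps join the oxidase to complex III, stood at 18.9 FPKM to 47.5 FPKM with no call (-0.55). Cox8a was the expressed form of its subunit: Cox8b, the muscle form, reached 0.108 FPKM in a single library and Cox8c, the testis form, was listed at 0 in all 8. Also under 1 FPKM in every library were Ndufs5 (at most 0.286 FPKM), Cox6c1 (at most 0.0360 FPKM) and Ndufa10l1, listed at 0 throughout. The Ndufa10l1 locus lies inside that of Ndufa10 (12.3 FPKM to 19.6 FPKM). Low values in this list are not proof of silence, since Gapdh, the glycolytic enzyme, was listed at 0.0354 FPKM to 0.524 FPKM and Cycs, cytochrome c itself, at up to 0.231 FPKM. Cox7a1, Cox7b2, Ndufa4l2 and Uqcrhl were not analysed here.

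The stretches before the gene starts were read for members called up (Sdha, Ndufa5, Ndufa12, Cox8a) and called down (Ndufa11, Atp5g2, Atp5j, Cox7a2). The call for Cox7a2 is uncertain, as given above. The stretches were picked to show NRF-1 and ETS letters before members of both kinds. YY1 letters stand only before Atp5j among them. Each is the 120 bases before the annotated start from RefSeq (build GRCr8, 5′ to 3′ on the strand of the gene). Capitals mark matches, on either strand, to the NRF-1 letters CGCNTGCGC, the ETS letters CCGGAAG (the core bound by GABP, also called NRF-2) and the YY1 letters AAGATGGC.
Sdha (chr1:30764433-30764552, plus strand): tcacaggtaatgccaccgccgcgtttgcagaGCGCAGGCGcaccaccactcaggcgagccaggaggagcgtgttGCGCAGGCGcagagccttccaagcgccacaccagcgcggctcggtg
Ndufa5 (chr4:53971236-53971355, minus strand): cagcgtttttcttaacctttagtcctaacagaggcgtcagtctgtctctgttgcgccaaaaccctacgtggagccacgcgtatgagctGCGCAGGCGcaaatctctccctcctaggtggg
Ndufa12 (chr7:30658196-30658315, plus strand): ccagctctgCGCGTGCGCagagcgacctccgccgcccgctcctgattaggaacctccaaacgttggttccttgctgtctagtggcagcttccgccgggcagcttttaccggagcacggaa
Cox8a (chr1:213833624-213833743, minus strand): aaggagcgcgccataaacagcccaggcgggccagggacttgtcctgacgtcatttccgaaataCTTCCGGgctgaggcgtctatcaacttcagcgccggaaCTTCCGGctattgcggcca
Ndufa11 (chr9:1637494-1637613, plus strand): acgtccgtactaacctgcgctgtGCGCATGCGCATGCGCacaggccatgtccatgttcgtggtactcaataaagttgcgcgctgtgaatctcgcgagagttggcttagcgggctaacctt
Atp5g2 (chr7:135678219-135678338, minus strand): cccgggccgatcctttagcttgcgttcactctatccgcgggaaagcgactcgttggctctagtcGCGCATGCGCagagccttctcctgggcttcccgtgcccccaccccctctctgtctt
Atp5j (chr11:37375102-37375221, minus strand): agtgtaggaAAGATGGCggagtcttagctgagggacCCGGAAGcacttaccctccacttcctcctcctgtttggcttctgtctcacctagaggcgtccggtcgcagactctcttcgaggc
Cox7a2 (chr8:89601150-89601269, minus strand): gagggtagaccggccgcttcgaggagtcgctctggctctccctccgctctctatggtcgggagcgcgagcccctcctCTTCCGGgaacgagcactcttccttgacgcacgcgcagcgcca
NRF-1 and GABP are known as factors of nuclear genes for respiratory subunits. NRF-1 letters stood 89 and 46 bases before the start of Sdha, 32 before that of Ndufa5 and 111 before that of Ndufa12, all of which rose, and also 97 to 90 bases before that of Ndufa11, in overlapping matches, and 56 before that of Atp5g2, which fell. ETS letters stood 57 and 19 bases before the start of Cox8a, 84 before that of Atp5j and 43 before that of Cox7a2, and YY1 letters 111 before that of Atp5j. Atp5g2 and Atp5j are now called Atp5mc2 and Atp5pf.

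Windows of 300 bases (250 before and 50 after the start) were found for 69 of the 83 gene identifiers. NRF-1 letters were in 18 of the 69 windows (26.1%), against 13.9% of the windows of all genes tested here and 5.80% of all windows. ETS letters were in 21 (30.4%), against 18.7% and 8.75%, and YY1 letters in 12 (17.4%), against 5.75% and 3.17%. By direction between E21 and P40, NRF-1 letters were in 7 of 20 windows of genes that rose, 3 of 11 of genes that fell and 7 of 35 of genes tested and not called. For ETS letters these counts were 6, 3 and 12, and for YY1 letters 4, 3 and 5. Letters of all 3 kinds were thus present on both sides and among genes with no call.

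The other motifs searched were longer or other forms of these (GCATGCGC, which overlaps the NRF-1 letters, in 10 windows or 14.5% against 5.36% of the genes tested and 2.47% of all windows; CGGAAGTG, overlapping the ETS letters, in 8 or 11.6% against 8.10% and 3.35%; and AAGATGGCG, which contains the YY1 letters, in 8 or 11.6% against 3.88% and 1.73%). The TATA letters TATAAA were in 4 windows (5.80% against 6.38% and 14.2%), the letters of estrogen-related receptors TCAAGGTCA in 2 (2.90% against 0.226% and 0.433%) and CCAAT in 23 (33.3% against 38.1% and 37.5%). The cyclic AMP response element TGACGTCA was in 4 (5.80% against 3.40% and 1.83%), the GC box GGGCGGGG in 9 (13.0% against 31.6% and 15.2%) and TAATCC, bound by the pineal and retinal factor CRX, in 8 (11.6% against 5.41% and 7.17%). All 12 were searched on both strands. A match to letters is not a bound site, and the build of these windows differs from that of the expression values.

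Cox4i1 and Cox4nb start 147 bases apart on opposite strands, and the stretch between them is shown because Cox4i1 rose while Cox4nb was not called. It is given on the strand of Cox4i1, from RefSeq build GRCr8, and holds none of the letters marked above. It does hold the GC box letters GGGCGGGG, and the 300-base window of each of these genes holds the ETS letters outside this stretch.
Cox4i1/Cox4nb (chr19:65630236-65630382, plus strand): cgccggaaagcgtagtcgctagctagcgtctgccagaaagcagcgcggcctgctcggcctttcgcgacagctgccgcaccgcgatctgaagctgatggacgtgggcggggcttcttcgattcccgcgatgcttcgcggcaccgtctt
Cox4nb stood at 10.7 FPKM and 21.9 FPKM at E21, 18.3 FPKM and 18.2 FPKM at P5, 14.8 FPKM and 10.4 FPKM at P20 and 10.7 FPKM and 9.53 FPKM at P40. Its change to P40 was -0.56 ± 0.31 (SE; limma, adjusted p = 0.185), which did not pass, beside the rise of Cox4i1 by 0.90. The difference between the 2 genes was not tested.

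Steps between neighbouring ages were tested as well. From E21 to P5, 9 members rose and 0 fell, where 15.1% of all transcripts tested were called (8.29% up and 6.84% down), and the member median was 0.37 against -0.04. They were Cox8a (2.70 ± 0.41, SE), the NM_012812 transcript of Cox6a2 (2.40 ± 0.45), Cox6c (2.36 ± 0.55), Cox7c (1.22 ± 0.24), Ndufa12 (1.2 ± 0.27), Ndufa5 (1.17 ± 0.22), Atp5d (0.96 ± 0.20), Cox4i1 (0.93 ± 0.23) and Sdha (0.66 ± 0.18; limma, adjusted p from 0.00601 to 0.0453). Of the 9, 5 belong to complex IV. No member was called without the P5 mid-day or the P5 mid-night library, while 4 were called without the E21 mid-day library and 14, 4 of them lower, without the E21 mid-night library. The shares of all transcripts called in those fits are not given here. Over the same step 7 of 9 choroid plexus genes, 5 of 10 pinealocyte genes and 3 of 5 astrocyte genes rose, and 3 of 4 genes of dividing cells fell. Tnnc2, the 1 skeletal muscle gene tested, was higher as well (2.57). It met the filter only through the P5 libraries, so its call is no support for a rise. Outside P5 the skeletal muscle genes summed to at most 1.68 FPKM. The part of all these cells in the calls for members was not tested.

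From P5 to P20, 1 member rose and 3 fell, where 7.02% of all transcripts tested were called (1.02% up, 5.99% down), so the members' share of calls was no higher than the background. Ndufa5 rose by 1.12 ± 0.22 (SE; limma, adjusted p = 0.0242), Cox6b2 fell by 1.61 (adjusted p = 0.00944) and Atp5g1 by 1.34 (adjusted p = 0.00777), and Cox7a2 was called at -1.85 (adjusted p = 0.0474), with the overlap given above. That call for Cox7a2 also ended with an offset of 0.1 or 5 FPKM (log2 change -3.50 and -0.83), quantile normalization, median centring, robust moderation, no term for time of day or no filter. Over the same step 6 of 9 choroid plexus genes fell and 1 rose, and 3 of 4 genes of dividing cells fell. So did 1 of 4 endothelial and 1 of 8 pericyte and smooth muscle genes. Tnnc2 was lower too, but it was tested only through its P5 values. The part of these cells in the calls for members was not tested. The medians were alike, at -0.14 for the members and -0.18 for all transcripts. With each library centred on its median, 4 rose and 2 fell, and after quantile normalization 2 rose and 2 fell. The shares of all transcripts called under these settings are not given here. No member was called without the P5 mid-night or the P20 mid-night library, 1 without the P5 mid-day library and 2 without the P20 mid-day library.

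Between P20 and P40, 0 of the 81 members passed, as did 0% of all transcripts tested (limma), and 3 had an unadjusted p under 0.05. These were the NR_037674 transcript of Cox6a2 (1.0, tested only through its P40 values), Cox6b2 (-0.76) and Ndufa1 (0.70). Over the whole course, both E21 libraries lay below all 6 later libraries for 28 of the 81 members, where 17.9% of all transcripts tested did so, and above all 6 for 3 members (Atp5g2, Ndufa11 and Ndufaf4), where 27.9% did so. Against the P40 pair alone, both E21 libraries lay below for 39 members and above for 18, where 28.2% and 46.1% of all transcripts did so. The 28 included Sdha, Sdhb and Sdhc of complex II, Atp5a1 and Atp5b of the catalytic head, and 6 transcripts of complex IV.

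Night and day were compared over P20 and P40, the ages at which the gland makes melatonin with a strong daily rhythm. Of the 81 members, 0 rose and 3 fell at mid-night, where 4.39% of all transcripts tested were called (2.8% up, 1.59% down). Atp5l stood at 21.0 FPKM at mid-day and 10.8 FPKM at mid-night of P20, and at 24.3 FPKM and 12.7 FPKM at P40. It was close to 2-fold lower at mid-night at both ages, a log2 change of -0.89 ± 0.17 (SE; limma, adjusted p = 0.0299). Atp5g1 was lower at mid-night at all 4 ages (-0.75 ± 0.16 over P20 and P40; limma, adjusted p = 0.0480), but the call ended after quantile normalization (-0.63), after median centring (-0.64) and with an offset of 5 FPKM (-0.49), at adjusted p from 0.0662 to 0.0908. The NM_001101011 transcript of Ndufv3 went from 8.78 FPKM to 0.391 FPKM at P20 and from 22.1 FPKM to 6.18 FPKM at P40 (-2.25 ± 0.45; limma, adjusted p = 0.0334), but the summed Ndufv3 transcripts did not pass (-0.48; limma, adjusted p = 0.182). None of the 3 calls held without any of the 4 libraries of P20 and P40, and 1 or 2 held without a library of E21 or P5. A difference in the night effect between the later pair of ages and the earlier pair was called for 0 members (limma, 3 with an unadjusted p under 0.05), where 0.753% of all transcripts were called (0.612% up, 0.141% down).

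At P20, 71 of the 81 members were lower in the mid-night library. Their median was -0.36, against -0.16 for all transcripts tested, and 7 were at least 2-fold lower and 0 higher. Of all transcripts tested, 67.6% were lower at mid-night at P20, against 87.7% of the members, and 5.16% were 2-fold apart, 2.72% lower and 2.44% higher. At P5, Cox7b (-1.27) and Cox7a2 (-1.07) were 2-fold lower at mid-night and no member higher, where 1.85% of all transcripts were 2-fold apart, 0.301% lower and 1.55% higher. At P40, Atp5e (-1.70) and the NM_001101011 transcript of Ndufv3 (-1.69) were lower and the NM_012812 transcript of Cox6a2 (1.59) higher by that much, where 4.38% were apart, 1.34% lower and 3.04% higher. At P40, 39 of the 81 were lower at mid-night, with a median of 0.02 against -0.05, so P40 did not show the shift of P20. The 7 at P20 included Cox8a (-1.18), Ndufa6 (-1.20), Atp5i (-1.21) and Ndufb6 (-1.10). With 1 library for each age and time, the time of day and the pool cannot be told apart at P20.

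**Figure D5:**
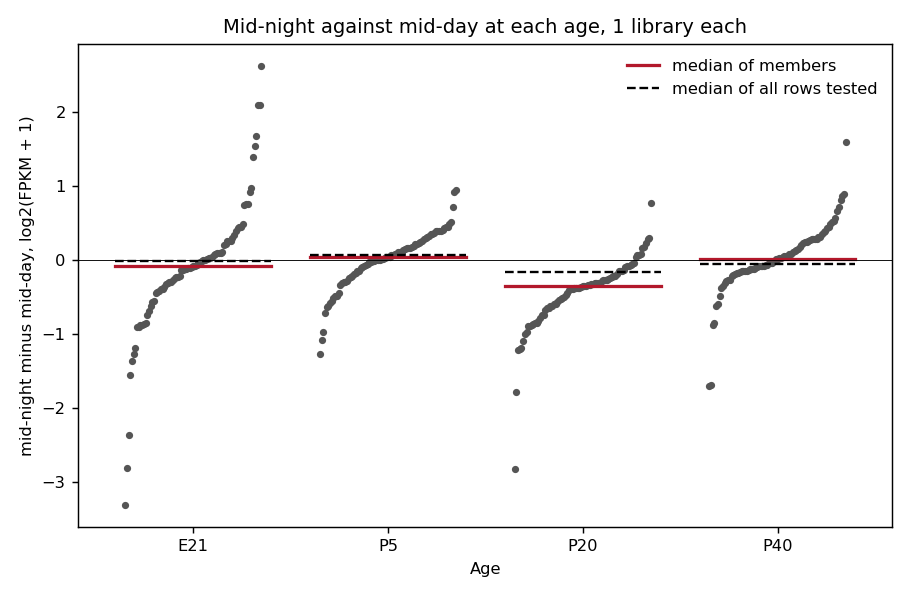
Mid-night minus mid-day difference on the log2(FPKM + 1) scale (y axis) for each of the 81 members tested, sorted within each age (x axis), with 1 library for each age and time. Red lines are the medians of the members and dashed lines those of all transcripts tested. At P20 the member median (-0.36) lies below that of all transcripts (-0.16), and at E21 the spread is the widest, from -3.30 to 2.61.

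Some members are harder to assign than others. Atp5h lies on a locus of 578 bp inside that of Nadk (NAD kinase, 12.6 FPKM to 18.8 FPKM), and stood at 63.3 FPKM to 143 FPKM with a change to P40 of 0.63 and no call. The locus of Cox6b2 lies inside the span of 294550 bp listed for Il11, which was at most 0.390 FPKM. Cox7b overlaps LOC100363531, at most 0.0774 FPKM, and Ndufs4 overlaps Pelo over 1769 bp. Ndufa11 is listed on a sequence not placed on a chromosome. Ndufb3, a small subunit of the membrane arm, was the least abundant complex I member that was tested, at 0.908 FPKM to 2.44 FPKM with no call. The 2 transcripts of the assembly factor Ndufaf3 summed to 5.86 FPKM to 8.37 FPKM, and neither was called. Of the members tested, 73 span over 2 kb. In a separate fit of transcripts spanning over 2 kb, 20 of them rose and 10 fell between E21 and P40. All 30 were also called in the main fit, and the share of all transcripts called in the separate fit is not given here.

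Genes that work beside the subunits were followed as lists. Of 18 assembly factors tested, 4 rose and 3 fell between E21 and P40: Cox17, a copper carrier for the oxidase, went from 18.0 FPKM and 13.6 FPKM at E21 to 70.3 FPKM and 59.3 FPKM at P40 (1.98 ± 0.28; limma, adjusted p = 0.00138), and Lrpprc, which stabilises mitochondrial mRNA, rose by 0.80. Among 16 genes of the citric acid cycle and pyruvate dehydrogenase, 5 rose and 1 fell, and Ogdh, a subunit of the 2-oxoglutarate dehydrogenase complex, rose by 1.39 ± 0.20 (SE; limma, adjusted p = 0.00138). Of 14 glycolytic genes, 5 rose and 2 fell, with Pgk1 (0.84) and Tpi1 (0.72) the most abundant. Background for these counts, and for those of the lists that follow, is the 16.1% called up and 26.8% called down over all transcripts.

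The regulators of mitochondrial gene expression were low in level. Of 16 tested, 3 rose and 4 fell, near the 16.1% called up and 26.8% called down over all transcripts. Esrrg, an estrogen-related receptor, rose by 1.53 ± 0.18 (SE; limma, adjusted p = 0.00063) and Gabpa, the DNA-binding subunit of GABP, fell by 0.68 (adjusted p = 0.0452). Ppargc1a, the coactivator known for driving mitochondrial biogenesis, went from 0.279 FPKM and 0.210 FPKM at E21 to 1.46 FPKM and 2.42 FPKM at P5 and 1.24 FPKM and 1.16 FPKM at P40 (0.82 ± 0.21; limma, adjusted p = 0.0158). Nrf1, the gene of the factor whose letters are shown above, went from 5.10 FPKM and 5.04 FPKM at E21 to 2.76 FPKM and 2.66 FPKM at P40 (-0.71 ± 0.18; limma, adjusted p = 0.0144).

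Of 7 mitochondrial antioxidant genes, 3 rose and 0 fell, with Gpx4 (1.63 ± 0.24) and Prdx5 (0.79 ± 0.22) the most abundant. Of 8 carriers, channels and uncoupling proteins tested, Slc25a3, the phosphate carrier that feeds ATP synthase, rose by 0.54 and Ucp2, an uncoupling protein homologue, fell by 1.59. Among 11 genes of protein import, Hspa9 rose by 0.77 and Hspe1 fell by 0.88, and of 3 pyruvate dehydrogenase kinases tested, Pdk1 fell by 1.03 (limma, adjusted p from 0.00794 to 0.0480 for these). Markers of other cells moved over the same interval: 4 of 4 genes of dividing cells fell, 4 of 4 endothelial and 5 of 8 pericyte and smooth muscle genes fell, 3 of 4 erythroid genes fell, 4 of 5 astrocyte genes rose and 1 fell, and 2 of 5 microglial genes rose and 1 fell. Their part in the changes of the subunits was not tested.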

How the data were processed

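Whole glands were pooled, RNA was enriched for poly(A), and libraries were read as paired ends on an Illumina HiSeq, per the labels' protocols. The authors deposited FPKM for each RefSeq transcript. TopHat 1.3.1, Cufflinks 1.2.0 and the build rn4 are named in the submitters' processing notes. Scaling beyond FPKM, filters and the use of strand are not given in the sources used here. Depth is unknown, so no counting intervals are given. For all 8 libraries the values given per sample equalled those of the series.

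Values were taken to log2(FPKM + 1), a scale on which changes of low transcripts look smaller than they are. A transcript was tested if 2 or more libraries held 1 FPKM or more, which left 9960. Tests used limma 3.58.1 (R 4.3.3) with a variance trend, were two-sided and were adjusted by Benjamini and Hochberg over all transcripts tested, with a threshold of 0.05. Ages were compared in a model of age plus time of day (3 residual degrees of freedom), and night in a model of age plus a night effect for the 2 earlier and the 2 later ages. The procedure was tested on simulated data.

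The members, gene lists, marker lists and naming rule were chosen with earlier results of these data known. Named were members past the test with the largest changes (at most 10 each way), subunits with alternative forms, cofactor-bearing subunits, members under 1 FPKM or with several transcripts, and the 3 most and 3 least abundant of each complex. From related lists, the 2 most abundant genes that passed are named. Some genes that this rule selects are not reported here. Ppargc1a, Nrf1, Gapdh, Cycs, Cox4nb, LOC685322, the overlapping entries, further called members and the promoter stretches were chosen after their values were seen.

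Other settings tried were offsets of 0.1 and 5 FPKM before the logarithm, dropping the minimum level or raising it to 5 FPKM, quantile normalization, centring or dividing by the library median, robust moderation, summing or taking the highest transcript of a symbol, a model of age alone and leaving out each library. A fit on transcripts spanning over 2 kb was added after the data were seen. Promoter windows (RefSeq, GRCr8) were matched by gene identifier and searched for 12 motifs.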

Additional observations from a re-analysis of the deposited data

How the results depend on the processing

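Without the filter on low values, where more transcripts are tested, fewer members were called: 11 between E21 and P40, 0 between E21 and P5, 0 between P5 and P20 and 0 at night. Without the term for time of day, 2 members were called between P5 and P20. Between E21 and P40, quantile normalization ended the calls for Cox7a2, Ndufa12, Ndufb10, Ndufb2 and Sdhc. Robust moderation ended those for Atp5g2, Ndufb2 and Ndufs6, and median centring those for Ndufb8 and Ndufs3. The summed FPKM of complex III changed sign when divided by the library median, from a log2 ratio of -0.01 to 0.13, and the cause was not tested.

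Leaving out each library in turn gave 16 to 35 calls between E21 and P40 (16 without the P40 mid-day library, 19 without the P40 mid-night library), 0 to 14 between E21 and P5, 0 to 6 between P5 and P20 and 0 to 2 at night. The library left alone at an age is then assumed to vary like the others. The shares of all transcripts called under these other settings, and without the filter, are not given here, so their counts have no background. Between P20 and P40 and for the difference of night effects, 0 members were called under every alternative run. After quantile normalization Ndufa11 was also called lower at P5 than at E21 (8 members up, 1 down). No called member changed sign under any alternative run. No pairing by replicate number was possible because a group is a single pool, and groups of 1 library share fewer than 2 replicate numbers. The model for night did compare mid-night with mid-day within age. It gave 1 effect shared by P20 and P40 and 1 shared by E21 and P5, not an effect for each age.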
